A study of Mus musculus with 8 samples.

Results

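The 8 genes described here are regulators of formative pluripotency, the transcription factors Otx2, Pou3f1, Zic2, Zic5, Sall2, Foxd3 and Tcf15 and the growth factor Fgf5. They were taken as the rows of the count table whose Ensembl ID maps to one of these symbols, which gave 8 of the 55335 genes counted. The rule itself used no measured value, but the members were chosen with earlier results of these data known. A filter on low counts kept 16504 genes for testing, among them 7 of the 8. Fgf5 did not pass it. The libraries came from E14 cells, a line of mouse embryonic stem cells (mESCs) labelled as such in all 8 samples and grown with serum, LIF, the GSK3 inhibitor CHIR99021 and the MEK inhibitor PD0325901. Cells of every group were infected with a lentivirus carrying a short hairpin RNA (shRNA) and selected with puromycin. Each of the 4 groups held 2 biological replicates. One received a scrambled shRNA (control), and the others an shRNA against Sox2 (Sox2-KD, for knockdown), against Hnrnpk (hnRNPK-KD) or against Cdk9 (Cdk9-KD). More than one shRNA was designed for each target, and the sources used here do not say which of them a library received.

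Formative pluripotency is the state that mESCs pass through when they leave the naive ground state and before they respond to signals for the germ layers. On the way, naive factors are lost and OTX2 and POU3F1 (OCT6) move with OCT4 to new enhancers, while FGF5 appears as a secreted marker of the early post-implantation epiblast. LIF, GSK3 inhibition and MEK inhibition hold mESCs before this transition, so that Otx2, Pou3f1 and Fgf5 are generally low in such cultures.

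Polyadenylated RNA was sequenced, with 16709201 to 17719366 counts in genes per library. Sox2 fell in Sox2-KD, from 412 and 530 normalized counts-per-million (CPM) in control to 320 and 284 CPM, with a log2 fold change (log2FC) of -0.64 (standard error, SE, 0.16, adjusted p = 0.0479 by edgeR's quasi-likelihood test). Cdk9 stood at 109 and 129 CPM in control and at 73.1 and 53.2 CPM in Cdk9-KD, a log2FC of -0.91 (SE 0.18) whose adjusted p of 0.0985 missed the threshold. Hnrnpk stood at 1094 and 1131 CPM in control and at 697 and 1144 CPM in the pair labelled hnRNPK-KD, so that replicate 2 of that label showed no lower Hnrnpk mRNA. They are called the hnRNPK-labelled libraries from here on, and every direction given for that label rests on them. The naive pluripotency genes, which define the labelled cell type, summed to 4377 to 6124 CPM per library, and all 12 passed the filter. Primitive endoderm markers summed to 42.8 and 62.6 CPM in Sox2-KD and to 2.97 to 5.90 CPM in the other 6 libraries. Dab2 alone made up most of that sum in Sox2-KD, with 637 and 950 counts against 12 and 15 in control. Pdgfra was above Dab2 in the other 6 libraries and changed little in Sox2-KD (log2FC 0.39, SE 0.39). Of the 5 tested markers, 4 had a positive log2FC in Sox2-KD against control and 1 a negative one (-0.26). The sum, made up mostly by Dab2, is therefore no measure of a rise shared by the whole list. The rise was not that of Dab2 alone, however. Differential expression, as defined below, was called for 2 of the 5 tested markers in Sox2-KD against control, both higher, as for 2.63% of all tested genes. The median log2FC of the 5 was 2.10, against 0.02 over all tested genes. The part of primitive endoderm cells in the results for the 8 genes was not tested. In bulk RNA, fewer cells that express a gene and less RNA per cell cannot be told apart.

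Stretches of promoter sequence are shown for the members that the results turn on, Otx2 and Sall2, and for Fgf5, which was not detected. They were taken from RefSeq (GRCm38.p6), from the 250 bases before an annotated start, read 5′ to 3′ on the strand of the gene and without bases that lie in an annotated exon. Capitals mark the letters of the SOX motif ACAAAG. Windows were found for 5 of the 8 genes. Otx2 has 4 windows, of which the most upstream, at chr14:48667645-48667894 on the − strand, is shown. It lies inside the span that GENCODE gives the gene, since the GENCODE annotation begins further upstream. Sall2 has its window at chr14:52328763-52328920 and, for a second start, at chr14:52316324-52316573, both on the − strand, and Fgf5 has 1 at chr5:98253934-98254183 on the + strand.
Otx2: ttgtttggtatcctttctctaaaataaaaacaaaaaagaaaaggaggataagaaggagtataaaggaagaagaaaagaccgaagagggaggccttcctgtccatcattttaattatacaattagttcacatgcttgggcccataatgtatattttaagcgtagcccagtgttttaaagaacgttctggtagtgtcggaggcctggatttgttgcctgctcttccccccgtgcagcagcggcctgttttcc
Sall2, upstream start: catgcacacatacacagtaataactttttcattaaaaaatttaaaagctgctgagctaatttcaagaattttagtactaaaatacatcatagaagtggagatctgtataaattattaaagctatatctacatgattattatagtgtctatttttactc
Sall2, second start: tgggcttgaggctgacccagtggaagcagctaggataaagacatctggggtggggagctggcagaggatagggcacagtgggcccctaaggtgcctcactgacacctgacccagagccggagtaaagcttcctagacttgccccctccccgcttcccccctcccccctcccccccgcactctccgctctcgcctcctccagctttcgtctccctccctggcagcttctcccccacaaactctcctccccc
Fgf5: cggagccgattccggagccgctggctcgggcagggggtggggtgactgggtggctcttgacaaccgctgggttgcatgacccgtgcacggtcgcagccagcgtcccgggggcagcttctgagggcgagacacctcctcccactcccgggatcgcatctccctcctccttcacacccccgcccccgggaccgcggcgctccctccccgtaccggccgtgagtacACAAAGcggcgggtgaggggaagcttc

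The SOX motifs ACAAAG and ACAATG and the octamer ATGCAAAT were searched on both strands in the 9 windows of the 5 genes, over all 250 bases of each. ACAAAG was found once, 27 bases before the start of Fgf5, where it overlapped no other match, and it is present in 16.5% of the 32851 windows of all genes. ACAATG (10.7% of all windows) and ATGCAAAT (1.6%) were not found in these 9 windows, which says only that the letters are absent there. The windows differ in composition. GC content was 28.0% with 0 CpG sites for the upstream start of Sall2, 42.0% with 6 CpG sites for the window of Otx2 shown (48.4% to 53.6% with 8 to 14 sites for its other 3), 64.4% with 6 for the second start of Sall2 and 70.8% with 24 for Fgf5, against medians of 52.4% and 6 over all windows. Zic5 (62.4%, 11 sites) and Foxd3 (65.6%, 21 sites) lie between. Counts per gene do not separate the 2 starts of Sall2.

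Levels per kilobase of exon (CPM per kb, mean ± SD, n = 2) allow the members to be ordered within a group. In control, Foxd3 was highest with 11.1 ± 2.93, followed by Tcf15 with 7.96 ± 1.75, Zic2 with 5.50 ± 1.53, Zic5 with 3.08 ± 0.752, Sall2 with 2.26 ± 0.076, Otx2 with 0.39 ± 0.0428, Pou3f1 with 0.0742 ± 0.0635 and Fgf5 with 0. Of these neighbours, Foxd3 and Tcf15 are the only pair whose control libraries overlapped. Otx2, Pou3f1 and Fgf5, the members best known as marks of the formative epiblast, were thus the 3 lowest, and they kept the last 3 places in each of the 4 groups. Zic2 came first in the hnRNPK-labelled libraries with 13.1 ± 8.19, where its range overlapped that of Foxd3 (11.2 ± 0.00473). Sall2 stood before Zic5 in Cdk9-KD, at 3.72 ± 1.6 against 2.93 ± 0.723, again with overlapping libraries. In Sox2-KD, Tcf15 followed Zic2, at 3.55 ± 1.56 against 4.87 ± 1.18, and their libraries overlapped too. Among all tested genes, 61.1% had a lower average CPM than Foxd3, 31.3% a lower one than Otx2 and 0.848% a lower one than Pou3f1.

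**Figure D1:**
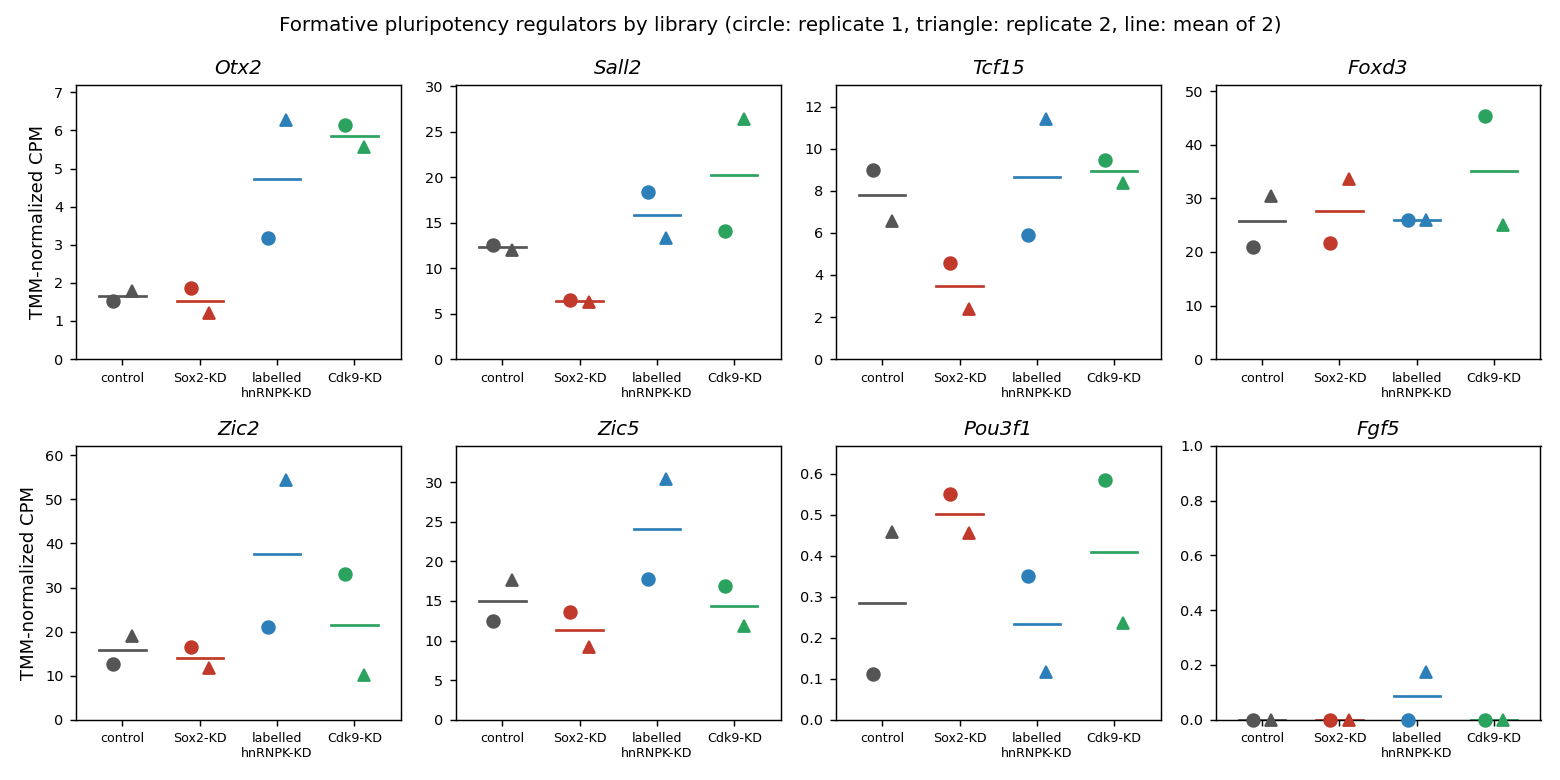
TMM-normalized counts-per-million (vertical axes, each from 0, scaled to the gene) of the 8 formative regulators in the 4 groups, with circles for replicate 1, triangles for replicate 2 and lines for the mean of 2. Both Cdk9-KD libraries lie above 5.5 CPM for Otx2, while both Sox2-KD libraries lie below 1.9 and overlap control (1.52 and 1.78). For Sall2, both Sox2-KD libraries lie at 6.28 to 6.54 CPM, below the other 6.

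Otx2 encodes a homeodomain factor that drives the move from the naive to the formative state. It lies on chromosome 14 from 48657677 to 48673819 (− strand, ENSMUSG00000021848.16, GRCm38). Its level was 1.52 and 1.78 CPM in control, 1.87 and 1.20 in Sox2-KD, 3.17 and 6.29 in the hnRNPK-labelled libraries, and 6.13 and 5.56 in Cdk9-KD, from 21 to 108 counts. Control and Sox2-KD overlapped, and all 4 libraries of the other groups lay above both. Otx2 was lower in Sox2-KD than in Cdk9-KD by 3.79-fold, a log2FC of -1.92 (SE 0.41, 95% interval -2.83 to -1.02, adjusted p = 0.0187). It was also lower in Sox2-KD than in the hnRNPK-labelled libraries, with a log2FC of -1.62 (SE 0.41, 95% interval -2.53 to -0.71, adjusted p = 0.0448). Against control, the log2FC was -0.10 (SE 0.43) in Sox2-KD, 1.52 (SE 0.41) in the hnRNPK-labelled libraries and 1.82 (SE 0.41) in Cdk9-KD, with adjusted p of 0.926, 0.420 and 0.155, so that none of the 3 groups passed against control. DESeq2 called the Cdk9-KD difference from control (adjusted p = 0.0213, with 0.0213 to 0.566 over 15 alternatives). The comparison with the hnRNPK-labelled libraries passed in 4 of 15 alternatives (adjusted p 0.0186 to 0.338). It missed the threshold without any 1 library other than replicate 1 of that label (0.0529 to 0.338), and without replicate 2 of that label its log2FC was -1.03. That with Cdk9-KD passed in 12 of 15 (0.00242 to 0.158) and missed the threshold without either Cdk9-KD library (0.0657 without replicate 1 and 0.0583 without replicate 2) and without Sox2-KD replicate 2 (0.158). The antisense gene Otx2os1, which overlaps Otx2, had at most 1 count in any library. Gm49154, annotated as an unverified transcript, overlaps the start of the gene on the same strand and had 0 counts in every library.

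Pou3f1 encodes the POU-domain factor OCT6, a partner of OTX2 at formative enhancers. It lies on chromosome 4 from 124656807 to 124660655 (+ strand, ENSMUSG00000090125.3). It had 2 and 8 counts in control, 10 and 8 in Sox2-KD, 6 and 2 in the hnRNPK-labelled libraries, and 10 and 4 in Cdk9-KD, which is 0.113 to 0.584 CPM. The 4 groups cannot be ordered at these counts. The antisense gene Gm2164, which overlaps its start, had at most 1 count in any library. The 95% intervals of its log2FC against control ran from -0.91 to 2.53 in Sox2-KD, from -2.21 to 1.66 in the hnRNPK-labelled libraries and from -1.26 to 2.30 in Cdk9-KD.

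Fgf5 encodes a secreted fibroblast growth factor and is the usual marker of the formative and early primed epiblast. It lies on chromosome 5 from 98254184 to 98277030 (+ strand, ENSMUSG00000029337.2). It had 0 counts in 7 of the 8 libraries and 3 counts (0.175 CPM) in replicate 2 of the hnRNPK-labelled libraries. A count of 0 allows up to 3 counts, or 0.165 to 0.177 CPM at these depths, which covers counting error only. Fgf5 was not detectable at this depth in control, Sox2-KD and Cdk9-KD, and no fold change is given for it.

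Zic2 and Zic5 encode zinc finger factors of the ZIC family, of which ZIC2 binds enhancers as cells leave the naive state. They lie on chromosome 14 in opposite directions, Zic5 from 122456795 to 122465677 (− strand, ENSMUSG00000041703.7) and Zic2 from 122475435 to 122479852 (+ strand, ENSMUSG00000061524.8), 9757 bases apart. Zic2 stood at 12.7 and 19.0 CPM in control, 16.4 and 11.6 in Sox2-KD, 20.9 and 54.3 in the hnRNPK-labelled libraries, and 33.1 and 10.1 in Cdk9-KD. The replicates of Zic2 differed from each other by 1.71 on the log2 scale in Cdk9-KD and by 1.37 in the hnRNPK-labelled libraries, more than in 98.3% and 96.8% of the tested genes. Zic5 stood at 12.4 and 17.6 CPM in control, 13.6 and 9.13 in Sox2-KD, 17.7 and 30.4 in the hnRNPK-labelled libraries, and 16.8 and 11.8 in Cdk9-KD. Both genes were highest in the same library, replicate 2 of the label hnRNPK-KD. Neither passed in any of the 6 comparisons. The largest log2FC of each were those of Sox2-KD against the hnRNPK-labelled libraries, -1.42 (SE 0.53, adjusted p = 0.147) for Zic2 and -1.08 (SE 0.32, adjusted p = 0.0780) for Zic5. DESeq2 called the latter (adjusted p = 0.0175, with 0.0175 to 0.480 over 15 alternatives). Without replicate 2 of the label hnRNPK-KD these log2FC were -0.56 for Zic2 and -0.63 for Zic5.

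The log2 CPM of Zic2 and Zic5 moved together, with a Pearson r of 0.912 over the 8 libraries, the highest of the 21 pairs of tested members. It is a description of 8 libraries that share groups and scaling. The transcript 2610035F20Rik lies between them, 235 bases from Zic2 and on the opposite strand to it. It had 10 and 26 counts in control, 30 and 24 in Sox2-KD, 24 and 95 in the hnRNPK-labelled libraries, and 40 and 23 in Cdk9-KD, and was highest in the same library as both Zic genes. Whether the counting used strand is not stated. The gap keeps 2610035F20Rik apart from Zic2 in the annotation.

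**Figure D2:**
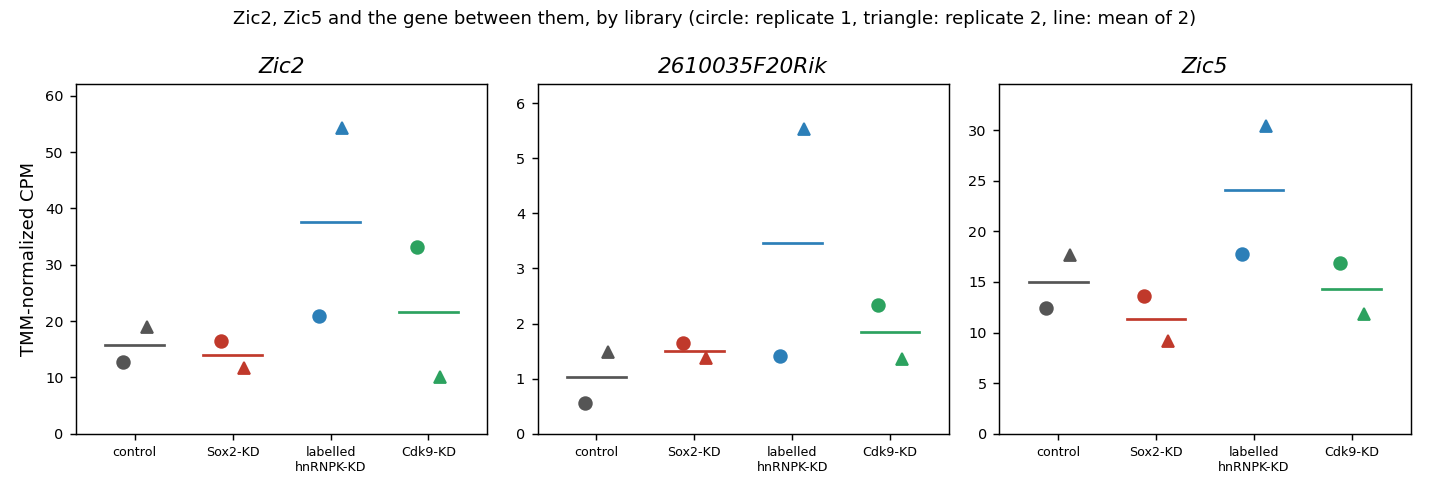
TMM-normalized counts-per-million (vertical axes, each from 0) of Zic2, of Zic5 and of the transcript annotated between them, by group, with circles for replicate 1, triangles for replicate 2 and lines for the mean of 2. All 3 are highest in replicate 2 of the hnRNPK-labelled libraries, at 54.3 CPM for Zic2 and 30.4 CPM for Zic5.

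Sall2 encodes a zinc finger factor of the spalt family. It lies on chromosome 14 from 52311172 to 52328762 (− strand, ENSMUSG00000049532.11). Its level was 12.6 and 11.97 CPM in control, 6.54 and 6.28 in Sox2-KD, 18.4 and 13.3 in the hnRNPK-labelled libraries, and 14.1 and 26.4 in Cdk9-KD. Both Sox2-KD libraries were lower than the other 6, and the hnRNPK-labelled libraries and Cdk9-KD all lay above control. Sall2 was lower in Sox2-KD than in Cdk9-KD by 3.15-fold, a log2FC of -1.66 (SE 0.31, 95% interval -2.33 to -0.98, adjusted p = 0.0103). It was lower in Sox2-KD than in the hnRNPK-labelled libraries by 2.47-fold, a log2FC of -1.30 (SE 0.31, 95% interval -1.98 to -0.63, adjusted p = 0.0332). Against control, the log2FC was -0.94 (SE 0.31, 95% interval -1.61 to -0.26) in Sox2-KD with an adjusted p of 0.117, 0.37 (SE 0.30) in the hnRNPK-labelled libraries with 0.830, and 0.72 (SE 0.30) in Cdk9-KD with 0.432. DESeq2 called the difference of Sox2-KD from control (adjusted p = 0.0484, with 0.0451 to 0.403 over 15 alternatives). The comparison with Cdk9-KD passed in 13 of 15 alternatives (adjusted p 1.52e-05 to 0.0820) and missed the threshold without Cdk9-KD replicate 2 (0.0586) and without Sox2-KD replicate 2 (0.0820). That with the hnRNPK-labelled libraries passed in 11 of 15 (0.00173 to 0.229) and missed it without any 1 of the 4 libraries compared.

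Tcf15 encodes a basic helix-loop-helix factor that primes mESCs for differentiation. It lies on chromosome 2 from 152143561 to 152149097 (+ strand, ENSMUSG00000068079.5). It stood at 9.01 and 6.59 CPM in control, 4.56 and 2.40 in Sox2-KD, 5.92 and 11.4 in the hnRNPK-labelled libraries, and 9.46 and 8.40 in Cdk9-KD. Both Sox2-KD libraries were the lowest of the 8. The log2FC of Sox2-KD was -1.16 (SE 0.39, 95% interval -2.03 to -0.30, adjusted p = 0.129) against control, -1.31 (SE 0.39, adjusted p = 0.0786) against the hnRNPK-labelled libraries and -1.36 (SE 0.39, adjusted p = 0.0628) against Cdk9-KD, none past the threshold. DESeq2 called the last 2 with adjusted p of 0.0218 and 0.0151, whose alternatives ran from 0.0218 to 0.483 and from 0.0151 to 0.359. Without replicate 2 of the label hnRNPK-KD, the log2FC of Tcf15 against that group was -0.75.

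Foxd3 encodes a forkhead factor that acts at enhancers in the change from naive to primed cells. It lies on chromosome 4 from 99656299 to 99658622 (+ strand, ENSMUSG00000067261.4). It stood at 20.9 and 30.5 CPM in control, 21.6 and 33.7 in Sox2-KD, 26.0 and 26.0 in the hnRNPK-labelled libraries, and 45.3 and 24.96 in Cdk9-KD. The 4 groups overlapped. The 95% interval of its log2FC against control was -0.57 to 0.77 in Sox2-KD, -0.66 to 0.69 in the hnRNPK-labelled libraries and -0.22 to 1.12 in Cdk9-KD. The lncRNA Gm12688, which lies on the other strand 1315 bases away, had 44 to 91 counts per library, with the most in Cdk9-KD replicate 1, where Foxd3 was also highest.

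Each knockdown was compared with the same 2 control libraries, and the 3 comparisons therefore share them. Differential expression (DE) meant an adjusted p below 0.05 with a log2FC beyond 0.6 in either direction. No member was DE against control in Sox2-KD, where 4.32% of all tested genes were, in the hnRNPK-labelled libraries, where 0% were, or in Cdk9-KD, where 0.139% were. At an unadjusted p under 0.05, edgeR's test held 2 of 7 members in Sox2-KD (Sall2 and Tcf15, both lower). It held 2 in the hnRNPK-labelled libraries (Otx2 and Zic2, both higher) and 2 in Cdk9-KD (Otx2 and Sall2, both higher). All tested genes gave 19.3%, 8.03% and 10.4% in either direction. In the direction of the members they gave 8.25% (lower), 3.48% (higher) and 5.49% (higher). Single libraries carried some of the members' values. Without replicate 2 of the label hnRNPK-KD, the log2FC of that group was 0.92 for Otx2 in place of 1.52 and 0.38 for Zic2 in place of 1.25. Without Cdk9-KD replicate 2, that of Sall2 in Cdk9-KD was 0.20 in place of 0.72. DESeq2 called 1, 0 and 1 of the members in the 3 groups, and 1029, 83 and 222 of all tested genes. For 2 of 7 members the Sox2-KD libraries did not overlap control and were lower, against 25.2% of all tested genes. Both hnRNPK-labelled libraries lay above both control libraries for 4 of 7, against 20.4%, and both Cdk9-KD libraries for 2 of 7, against 21.2%. The median log2FC of the members was -0.17, 0.37 and 0.45 in these 3 comparisons, and that of all tested genes was 0.02 in each.

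The groups were also compared directly, since a difference from control in one group and not in another is no test between them. The comparisons of Sox2-KD share its 2 libraries. Between Sox2-KD and the hnRNPK-labelled libraries, 2 of 7 members (Otx2 and Sall2) were DE, both lower in Sox2-KD, while 5.9% of all tested genes were DE and 1.95% were DE and lower. At an unadjusted p under 0.05 stood 5 members, all lower in Sox2-KD, against 21.3% of all tested genes in either direction and 8.38% lower. For these 5 (Otx2, Sall2, Tcf15, Zic2 and Zic5) both Sox2-KD libraries lay below both others, which held for 27.3% of all tested genes. Between Sox2-KD and Cdk9-KD, the same 2 members were DE and lower in Sox2-KD, while 7.33% of all tested genes were DE and 2.56% DE and lower. There 3 members were under an unadjusted p of 0.05, all lower (21.7% of all tested genes in either direction, 9.3% lower). The libraries of 3 did not overlap with Sox2-KD lower (25.1%). Both times these were Otx2, Sall2 and Tcf15. Median log2FC of the members was -1.30 and -0.62 in these comparisons, and -0.01 and -0.02 over all tested genes. Between Cdk9-KD and the hnRNPK-labelled libraries, 0 members were DE by edgeR's quasi-likelihood test and 0 by DESeq2, with 0% of all tested genes DE by the former. Only Zic5 was under an unadjusted p of 0.05 there (log2FC -0.75, SE 0.32, adjusted p = 0.836), against 5.71% of all tested genes. All p-values measure the spread between libraries, with 2 per group.

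**Figure D3:**
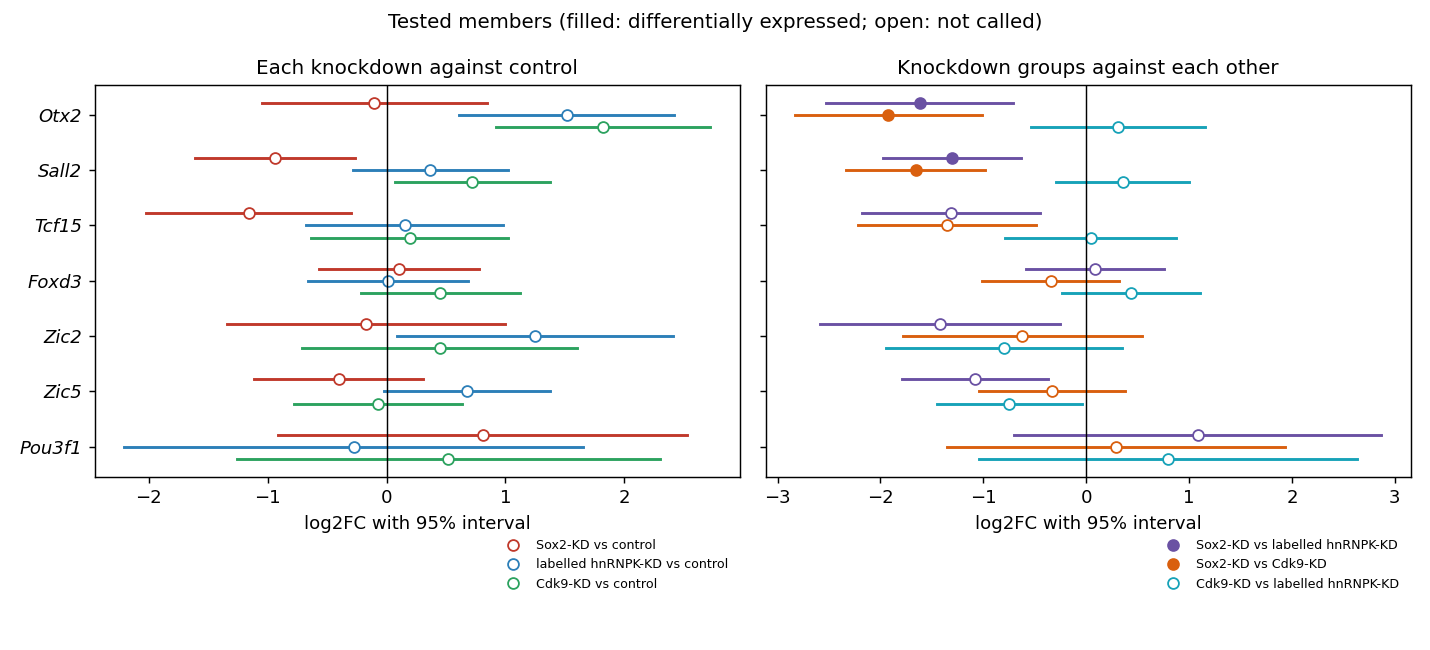
Log2 fold change with its 95% interval (horizontal axes) for the 7 tested members, on the left for each knockdown group against control and on the right between knockdown groups, with filled points for genes called differentially expressed. The 4 filled points are Otx2 and Sall2 in both comparisons of Sox2-KD with another knockdown group, from -1.30 to -1.92, and no point on the left is filled.

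Other genes of the pathway were read from lists that hold none of the 8. Of 13 other genes linked to formative pluripotency, 12 were tested. Against control, 2 were DE in Sox2-KD, both higher, 0 in the hnRNPK-labelled libraries and 0 in Cdk9-KD. In Sox2-KD, 2.63% of all tested genes were DE and higher. Unadjusted p under 0.05 held for 4 of the 12 in Sox2-KD (3 higher, 1 lower). It held for 5 in the hnRNPK-labelled libraries and 5 in Cdk9-KD (2 higher and 3 lower in each). Over all tested genes it held for 19.3%, 8.03% and 10.4%. DESeq2 called 1 of the 12 in the hnRNPK-labelled libraries and 3 in Cdk9-KD, and 83 and 222 of all tested genes. Dnmt3l, a cofactor of the de novo DNA methyltransferases, rose from 86.4 and 78.9 CPM in control to 218 and 185 CPM in Sox2-KD (log2FC 1.28, SE 0.16, adjusted p = 0.00322). It stood at 156 and 151 CPM in the hnRNPK-labelled libraries (log2FC 0.89, adjusted p = 0.198) and at 106 and 134 CPM in Cdk9-KD (log2FC 0.54, adjusted p = 0.281), above control in every library. Utf1, a chromatin-associated gene of pluripotent cells, rose from 25.8 and 30.9 to 50.5 and 48.0 CPM (log2FC 0.80, SE 0.18, adjusted p = 0.0328). It too lay above control in every library of the other groups, with a log2FC of 0.61 (adjusted p = 0.457) in the hnRNPK-labelled libraries and of 0.84 (adjusted p = 0.137) in Cdk9-KD. Lin28a, an RNA-binding protein that blocks let-7 maturation, had a log2FC of -0.93 (SE 0.39, adjusted p = 0.228) in Sox2-KD against control. Between Sox2-KD and the hnRNPK-labelled libraries, 1 of the 12 was DE lower in Sox2-KD, Lin28a (log2FC -1.56, adjusted p = 0.0452), and 1 DE higher, the DNA methyltransferase gene Dnmt3a (log2FC 0.97, adjusted p = 0.0244). Between Sox2-KD and Cdk9-KD, 3 were DE higher in Sox2-KD, namely Dnmt3b, Dnmt3l and Pim2 (log2FC 0.98, 0.75 and 0.81), and 0 lower. Among all tested genes, 1.95% were DE lower and 3.95% DE higher in the former comparison, and 4.77% DE higher in the latter. The medians of the 12 were 0.17 and 0.48 in these comparisons, where those of the 7 tested members were -1.30 and -0.62. The median of the 12 in Sox2-KD against control was -0.02. Of 5 regulators of exit from the naive state, which include the repressor Tcf7l1 and the folliculin gene Flcn, 0 were DE in any of the 6 comparisons by edgeR's quasi-likelihood test, and 0 had an unadjusted p under 0.05. Their log2FC against control ranged from -0.27 to 0.29 over the 3 groups.

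All 12 naive pluripotency genes were tested, and 0 were DE against control in any of the 3 groups by edgeR's test. In Sox2-KD, 4 had an unadjusted p under 0.05, all lower, which held for 8.25% of all tested genes. In the hnRNPK-labelled libraries 1 did, lower, against 4.55% of all tested genes. In Cdk9-KD 5 did, 3 higher and 2 lower, against 10.4% of all tested genes in either direction. DESeq2 called 2 in Cdk9-KD, and 222 of all tested genes. The median log2FC was -0.25, 0.04 and 0.22 in the 3 groups. The furthest from control in Sox2-KD were the nuclear receptors Nr0b1 with -0.73 (SE 0.26, adjusted p = 0.151) and Nr5a2 with -0.55 (SE 0.30, adjusted p = 0.356). Nr0b1 was DE lower in Sox2-KD than in the hnRNPK-labelled libraries (log2FC -1.11, adjusted p = 0.0339). Klf2, Nr5a2 and Tbx3 were DE lower in Sox2-KD than in Cdk9-KD (log2FC -1.08, -1.13 and -0.85).

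Relatives from the members' own gene families were compared too. Of 21, 9 were tested and 6 had at most 3 counts in every library. Against control, Sall3, a spalt factor like Sall2, fell in Sox2-KD from 31.4 and 32.2 CPM to 16.4 and 8.96 (log2FC -1.33, SE 0.29, adjusted p = 0.0322). It stood at 34.5 and 55.5 CPM in the hnRNPK-labelled libraries and at 38.9 and 47.1 in Cdk9-KD. Sox2-KD thus had the lowest libraries for both Sall2 and Sall3. Sall1, another spalt gene, overlapped control in Sox2-KD (94.4 and 141 CPM in control, 131 and 131 in Sox2-KD). Msc, a basic helix-loop-helix gene like Tcf15, rose in Sox2-KD from 7.66 and 12.1 CPM to 27.0 and 26.4 (log2FC 1.43, SE 0.25, adjusted p = 0.0119). It also lay above control in all libraries of the other groups, with a log2FC of 0.90 (adjusted p = 0.423) in the hnRNPK-labelled libraries and of 0.72 (adjusted p = 0.348) in Cdk9-KD. Tcf24, a further basic helix-loop-helix relative, had a log2FC of -0.91 (SE 0.33, adjusted p = 0.153) in Sox2-KD, on the same side of control as Tcf15. The forkhead gene Foxd1 had 42 and 60 counts in control and 9 and 2 in Sox2-KD (log2FC -3.21, SE 1.09, adjusted p = 0.133).

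**Figure D4:**
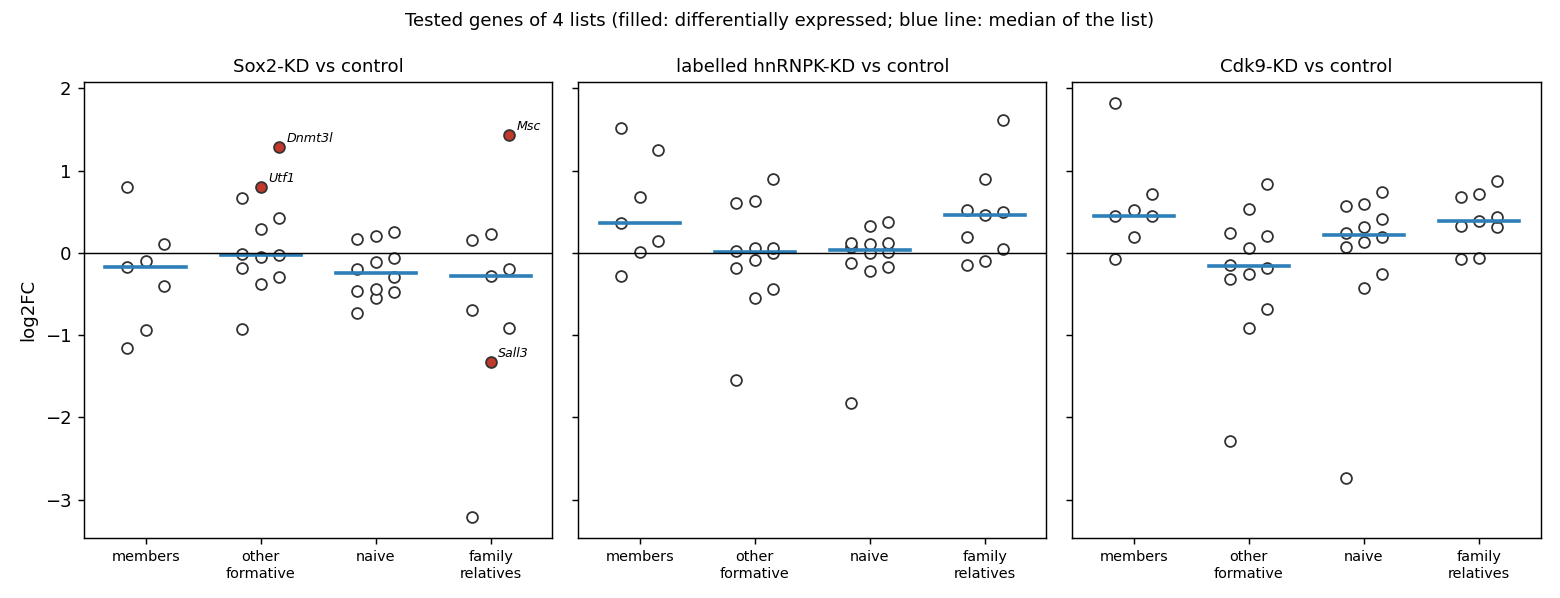
Log2 fold change against control (vertical axis) of the tested genes of 4 lists, 1 point per gene, for Sox2-KD, the hnRNPK-labelled libraries and Cdk9-KD, with blue lines for the median of a list and filled points for genes called differentially expressed. The only filled points are Dnmt3l, Utf1, Msc and Sall3, all in Sox2-KD, and the medians of the 7 tested members are -0.17, 0.37 and 0.45.

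Several members mark other tissues as well, OTX2 and the ZIC factors in neural progenitors and FOXD3 in the neural crest. Neural progenitor markers summed to 28.4 to 50.2 CPM per library, and 5 of the 8 had at most 3 counts in every library, Pax6 among them. Nes made up most of that sum in every library, with 26.2 to 42.3 CPM. It stood at 35.3 and 34.3 CPM in control and at 27.4 and 42.3 CPM in Sox2-KD, which overlap. Sox1 fell in Sox2-KD from 5.63 and 2.98 CPM to 0.549 and 0.514 (log2FC -3.00, SE 0.50, adjusted p = 0.0102), while Otx2 overlapped control there. Of the 3 tested markers, 2 had a negative log2FC in Sox2-KD against control and 1 a positive one. Neural crest markers summed to 1.58 to 2.68 CPM. Trophectoderm markers summed to 67.7 and 81.4 CPM in control and to 49.7 and 57.1 in Sox2-KD. Of 5 tested against control, 3 were DE higher in Sox2-KD (2.63% of all tested genes). In Cdk9-KD, 1 was DE higher and 1 lower (0.139% of all tested genes in either direction). Of 4 tested primitive streak and mesendoderm markers, 1 was DE higher and 1 lower in Sox2-KD, and 1 higher in Cdk9-KD. These lists share a gene. The part of any of these cell types in the values of the members was not tested.

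The tested genes whose log2 CPM was most like a member's over the 8 libraries were named by Pearson r among 11456 abundant genes, as a description. For Otx2 they included Rhot2 (0.991) and Stk16 (0.981). For Sall2 they were Marcks (0.990), Nudt4 (0.973) and Enox2 (0.969), and for Tcf15 Hsd17b10 (0.995), Exosc7 (0.991) and Chtf18 (0.991). For Zic2 they were Ercc1 (0.954), Eif2b2 (0.936) and Eif6 (0.935), for Zic5 Dtymk (0.952), Kansl2 (0.945) and Srm (0.945), and for Foxd3 Mrps36 (0.969), Ubb (0.949) and Fbrsl1 (0.933). Pou3f1 was most like Wtip (0.946), at a level near the filter. No other member is among these genes, and all of them share the libraries and their scaling.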

How the data were processed

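Polyadenylated RNA of 8 libraries of E14 cells was sequenced, 2 for each group. The authors trimmed reads with Trimmomatic, aligned them with STAR (2.7.9a in the submitters' processing notes) and deposited raw counts per gene from featureCounts 2.0.1, with GENCODE vM23 on mm10 (GRCm38), neither normalized nor pooled. Neither the strand setting nor the handling of multi-mapped reads is given. The study's methods name a test of differential transcript expression, while its results give numbers of genes. The counts used here are per gene.

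All 8 columns were matched to a sample by name. A reference list of gene names, with GENCODE vM21 as fallback, gave a symbol for 55154 genes and none for 181. After filterByExpr (at least 10 counts, total of 15), genes were tested with the quasi-likelihood test of edgeR 4.0.16 (R 4.3.3), TMM scaling, 1 fit over all 8 libraries, a group term and Benjamini-Hochberg adjustment over all tested genes. The scripts were tested on simulated data. SE is the absolute log2FC divided by the square root of F. Depth of 16709201 to 17719366 counts sets the precision, and a count of 0 allows up to 3. Libraries of 1 group differed by more than sampling noise (chi-square per gene 16.4 to 28.9).

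Genes named are the 8 members, the 3 targeted genes, genes next to a member, genes of the fixed lists that were DE against control or had the 2 largest absolute log2FC in Sox2-KD, and the 3 genes most like each tested member. Results of 2 genes that this rule or the lists would name are not reported here. Genes DE between 2 knockdown groups, single markers, Sall1 and Tcf24 were named after their values were seen. Members and lists were chosen with earlier results of these data known. Same-numbered replicates deviated together with a correlation of -0.22 to 0.21, so that the numbers were not taken to pair the samples. Alternatives were DESeq2 1.42.0, its size factors in edgeR, library totals, no filter (at least 1 count in all libraries together), a minimum of 10 counts in each library, a fit of the 4 compared libraries alone, a replicate block, and leaving out each library in turn. Figures were drawn with matplotlib 3.10.9.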

Additional observations from a re-analysis of the deposited data

How the results depend on the processing

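Members called DE numbered 2 between Sox2-KD and the hnRNPK-labelled libraries. They numbered 4 with DESeq2 and 1 each with library totals, with no filter, in the fit of only the 4 libraries compared and with the replicate block, where Otx2 lost its call (adjusted p = 0.0665). All tested genes called there numbered 974 in the main test and 1275 with DESeq2. They numbered 1153 with library totals, 823 with no filter, 867 in the fit of only 4 libraries and 905 with the block. DESeq2 called 1 member against control in Sox2-KD and 1 in Cdk9-KD, where the main counts were 0. In Sox2-KD against control it called 1029 of all tested genes (713 in edgeR). For all tested genes, DESeq2 called 83 in the hnRNPK-labelled libraries against control (0 in edgeR, 1 with no filter), 222 in Cdk9-KD against control (23 in edgeR, 15 with the replicate block) and 56 between Cdk9-KD and the hnRNPK-labelled libraries (0 in edgeR). The block changed no other count of calls by over 1.5 times, and the replicate numbers do not pair the samples.

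With 1 library left out, the lone sample of its group being assumed to vary like the other groups, members called numbered 0 to 1 in Sox2-KD against control, 0 to 3 between Sox2-KD and the hnRNPK-labelled libraries, 0 to 3 between Sox2-KD and Cdk9-KD, and 0 in the other 3 comparisons. All genes called then numbered 144 to 840 (Sox2-KD), 0 to 1 (labelled hnRNPK-KD) and 0 to 33 (Cdk9-KD) against control, 90 to 1100 and 337 to 1286 for Sox2-KD against the hnRNPK-labelled libraries and Cdk9-KD, and 0 to 6 between those 2.

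Of 282 values of single members under the other alternatives, 270 kept their direction and side of the threshold, 5 gained a call, 4 lost one and 3 reversed. The 3 are Foxd3 in the hnRNPK-labelled libraries against control, whose log2FC of 0.01 was -0.023 with library totals, -0.0061 with at least 10 counts in every library and -0.0068 with only 4 libraries. Of 336 values with a library left out, 285 stayed the same, 5 gained a call, 16 lost one and 30 reversed, none of the last being a called value. The log2FC of those that reversed ranged as follows. In Sox2-KD against control the range was -0.47 to 0.18 for Otx2, -0.45 to 0.13 for Zic2 and -0.25 to 0.40 for Foxd3. In the hnRNPK-labelled libraries against control it was -1.25 to 0.996 for Pou3f1, -0.26 to 0.30 for Foxd3 and -0.42 to 0.54 for Tcf15. In Cdk9-KD against control it was -0.29 to 1.78 for Pou3f1, -0.69 to 1.06 for Zic2, -0.38 to 0.17 for Zic5, -0.076 to 0.82 for Foxd3 and -0.041 to 0.40 for Tcf15. In Sox2-KD against the hnRNPK-labelled libraries it was -0.27 to 0.36 for Foxd3. In Sox2-KD against Cdk9-KD it was -0.22 to 1.09 for Pou3f1, -1.25 to 0.50 for Zic2 and -0.72 to 0.17 for Foxd3. In Cdk9-KD against the hnRNPK-labelled libraries it was -0.13 to 0.87 for Otx2, -1.92 to 0.035 for Zic2, -0.17 to 0.72 for Sall2, -0.072 to 0.80 for Foxd3 and -0.38 to 0.58 for Tcf15. Library totals moved the median log2FC of all genes between Sox2-KD and the hnRNPK-labelled libraries from -0.01 to 0.10. The filter of 10 counts in every library left out Pou3f1. At 2 to 10 counts per library, Pou3f1 has the widest intervals of the 7 tested members.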
